A study of Homo sapiens with 8 samples.

Results

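Oxidative phosphorylation subunit genes were described in the human cell line OCI-AML5, which comes from acute myeloid leukemia, after lentiviral delivery of Cas9 with guides against CEBPD or with control guides. Genes were chosen by symbol alone (NDUFA, NDUFB, NDUFC, NDUFS and NDUFV with a number, SDHA to SDHD, UQCR, CYC1, COX4 to COX8, ATP5F, ATP5M, ATP5P and the protein-coding MT genes), with no use of measured values. The letters after COX4 kept COX4I1 and COX4I2 out. COX4I1 is given with the related genes, and COX4I2 is not given. The symbols matched 102 of the 23562 rows in the deposited table. Of these rows, 91 are genes of complex subunits, 78 in the nuclear genome and 13 in the mitochondrial genome. The other 11 rows are not among these subunit genes: they are pseudogenes, the antisense and divergent transcripts UQCRB-AS1 and UQCRFS1-DT, and the UQCRH-like gene UQCRHL. By complex, the nuclear genes numbered 36 for complex I, 4 for complex II, 9 for complex III, 12 for complex IV and 17 for complex V. NDUFA4 carries a complex I symbol but its protein is known as a subunit of cytochrome c oxidase, and it is counted here with complex IV.

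The sgCEBPD group held 4 libraries, each from OCI-AML5 cells given lentiCRISPRv2 with a different guide against CEBPD, the gene of the transcription factor C/EBP delta. The sgControl group held 4 libraries, each with a different non-specific guide in the same vector. All 8 libraries were made from polyadenylated RNA of the same cell line. The labels give no repeat of a transduction and no cloning of cells, so the p-values measure the spread between these libraries, guide differences included.

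Oxidative phosphorylation takes electrons from NADH through complex I, or from succinate through complex II, and passes them over complex III and cytochrome c to oxygen at complex IV. Complexes I, III and IV pump protons across the inner mitochondrial membrane, and complex V, the ATP synthase, uses that gradient to make ATP. Complex II is built from nuclear genes only, while the other complexes mix nuclear subunits, imported after translation in the cytosol, with core subunits that are transcribed and translated inside the mitochondrion.

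Library totals lay between 10217751 and 11521209 counts. The targeted gene CEBPD had 106.7, 209.5, 194.9 and 164 CPM in sgCEBPD 1 to 4, against 202.3 to 216.4 CPM in the sgControl libraries (CPM are counts scaled to the TMM-adjusted library size). The groups overlapped for CEBPD. Its log2 fold change (sgCEBPD over sgControl) was -0.29, with an adjusted p of 0.551 in edgeR, so it was not called. Whether the guides disrupted the gene was not tested. sgCEBPD 3 stood apart from the other libraries. Its correlations with them, across genes on the log2 CPM scale, lay between 0.934 and 0.95, against 0.981 to 0.994 among the other 7. In that library the myeloid markers ITGAM, at 210.4 CPM, and CD14, at 41 CPM, were above the other 7, and the progenitor markers CD34, at 7.86 CPM, and KIT, at 2.46 CPM, were below them. Lymphoid markers summed to 5.53 to 68.1 CPM in sgCEBPD libraries, the highest being sgCEBPD 3 with 52.7 CPM of CD3D, against 9.01 to 10.5 CPM in sgControl libraries. CD33, SPI1 and PTPRC, markers of myeloid cells or leukocytes, were found in all 8 libraries. All 4 tested monocyte and macrophage markers were above the other 7, with a summed level of 500.1 to 900.7 CPM in sgCEBPD libraries and 405.4 to 519.3 CPM in sgControl libraries. SPI1, at 433.4 CPM, and PTPRC, at 942.7 CPM, were above the other 7 in sgCEBPD 3, so that 4 of the 7 progenitor and AML markers were below and 2 above. PTPRC also had 405.2 to 496.5 CPM in sgCEBPD 1, 2 and 4, against 306 to 365.8 CPM in sgControl libraries. TYROBP had 9.76 to 19.2 CPM there, against 4.555 to 6.722 CPM. CD33 was lower in every sgCEBPD library, at 99.05 to 106.8 CPM, against 122.5 to 143.4 CPM, and CD79A was also lower in each. The other tested markers overlapped between groups. ITGAM had 7.578, 21.29 and 6.478 CPM in sgCEBPD 1, 2 and 4, against 3.997 to 10.92 CPM in sgControl libraries. MRC1 had 8.981, 17.69 and 3.11 CPM in sgCEBPD 1, 2 and 4, against 1.56 to 4.264 CPM. CSF1R had 451.3 to 484.8 CPM in sgCEBPD 1, 2 and 4, against 387.3 to 503.2 CPM. Of all genes, 4.62% were lower and 4.96% higher in every sgCEBPD library than in every sgControl library. The part of these differences in the results below was not tested. In bulk RNA, fewer cells of a type and less RNA per cell cannot be told apart.

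Levels were compared between genes per length, as CPM per kb of the principal transcript (the median length over the principal transcripts of GENCODE 29), averaged over the 8 libraries. The 13 mitochondrial mRNAs had a median of 1640 CPM per kb and the 78 nuclear genes a median of 59.15 CPM per kb. MT-CO1, the catalytic subunit of complex IV, was highest at 4266 CPM per kb. MT-CO3 followed at 3274 and MT-CO2 at 3266 CPM per kb, both core subunits of the same complex. Of the nuclear genes, ATP5F1B, the catalytic beta subunit of ATP synthase, had the highest level at 574.8 CPM per kb. ATP5F1A, its alpha partner, had 372.4 CPM per kb. CYC1, cytochrome c1 of complex III, had 334.2 CPM per kb, and COX5A of complex IV had 304.4 CPM per kb. The median level by complex over the nuclear genes was 58.7 CPM per kb in complex I, 24.2 in complex II, 41.9 in complex III, 141 in complex IV and 80 in complex V.

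**Figure D1:**
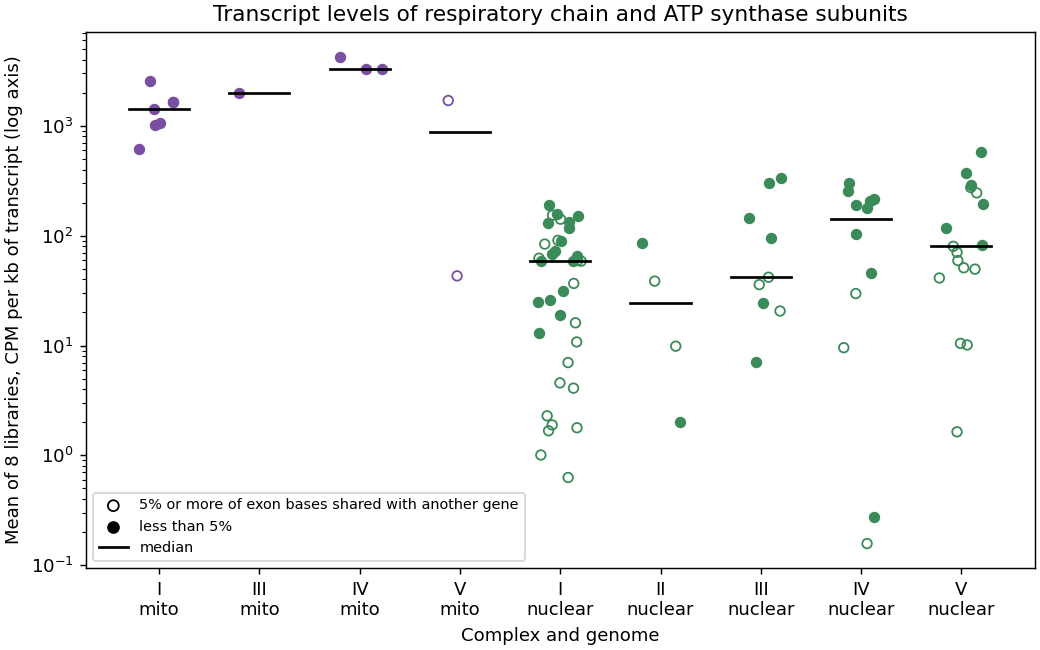
Mean level of each of the 91 subunit genes over the 8 libraries, in CPM per kb of transcript on a log axis, by complex and genome; open circles mark genes that share 5% or more of their exon bases with another gene, and bars are medians. The mitochondrial genes lie around a median of 1640 and the nuclear genes around a median of 59.15 CPM per kb.

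Partners within a complex did not have like counts, and low values often belonged to genes that share exon bases with another gene. Under 10 CPM per kb stood 16 nuclear genes, and 13 of them share 5% or more of their exon bases with another annotated gene on either strand. Among the 62 nuclear genes at or over that level, 25 do so. NDUFB8, an accessory subunit of complex I, averaged 1.54 CPM and overlaps another gene over 48.5% of its exon bases. NDUFV2, a core iron-sulfur subunit, averaged 1.56 CPM with 28.4% overlapped. ATP5ME, a membrane subunit of ATP synthase, averaged 0.598 CPM with 61.6% overlapped by MYL5 and others. How strands and shared reads were counted is not given in the sources used here, and the part of counting in these levels was not tested. SDHA, the flavoprotein of complex II, had 37 to 58 counts in a library with no overlap in the annotation, while its near-identical pseudogene SDHAP1 had 148 to 235 counts and SDHAP3 had 43 to 88 counts. How reads were divided between SDHA and these copies was not tested. The levels of SDHC, NDUFA9 and UQCRB per kb rest on principal transcripts of over 5000 bases. Without these 3 genes, 14 nuclear genes stood under 10 CPM per kb, of which 11 had such an overlap. The median level was then 38.6 CPM per kb in complex II and 68.9 in complex III. Other transcript lengths were used as annotated and were not checked.

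Isoforms known from heart and skeletal muscle or from testis were near 0. COX7A1, the muscle isoform of COX7A, had at most 0.378 CPM in sgCEBPD libraries and at most 0.388 CPM in sgControl libraries. COX6B2, the testis isoform of COX6B, had 0.187, 0.284, 0.982 and 0.173 CPM in sgCEBPD 1 to 4, against 0 to 0.291 CPM in sgControl libraries. These genes and ATP5ME did not pass the filter on low counts, so 88 of the 91 subunit genes were tested. ATP5MFP2, UQCRFS1P1 and UQCRHL, all close copies of member genes, were the 3 of the other 11 rows that passed.

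The lowest mitochondrial value belonged to a gene that shares bases with its neighbour. MT-ATP8, the small accessory subunit beside subunit a of ATP synthase, had 43.1 CPM per kb, while its neighbour on the same transcript, MT-ATP6 (subunit a itself), had 1699 CPM per kb. The genes share 46 bases, chrM:8527-8572 in hg38, which is 22.2% of MT-ATP8. MT-ND4L had 619.5 CPM per kb and shares 7 bases with MT-ND4, which had 2534 CPM per kb. Both pairs are known to be carried on 1 shared mRNA, and how reads in shared bases were counted is not given in the sources used here. The part of the shared bases in these levels was not tested. The shared stretch of the ATP synthase pair is shown because it belongs to both genes, opening with the start codon of MT-ATP6 and ending with the stop codon of MT-ATP8. Capitals mark shared bases, here the whole stretch.
MT-ATP8 and MT-ATP6 shared bases: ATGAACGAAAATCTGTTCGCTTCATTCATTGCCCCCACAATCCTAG

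With all 8 libraries, no subunit gene passed the test between sgCEBPD and sgControl (edgeR quasi-likelihood test, Benjamini-Hochberg adjusted p under 0.05 over 13838 genes). Over all genes, 11 passed, which is 0.0795%. At an unadjusted p under 0.05 in edgeR stood 2 of 88, against 11.4% of all genes tested. Without sgCEBPD 3, 0 of 88 passed in edgeR while 2.01% of all genes did. The lowest adjusted p was then 0.128, and 2 of 88 had an unadjusted p under 0.05, against 15.5% of all genes. DESeq2, limma-voom and limma-voom with quality weights also called 0 subunit genes.

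Differences were small in both genomes. The median log2 fold change (sgCEBPD over sgControl) was -0.06 over the nuclear genes of complex I, -0.07 over complex II, -0.04 over complex III, 0.02 over complex IV and -0.07 over complex V. It was -0.05 over the 75 tested nuclear genes, of which 53 had a negative sign, and -0.01 over the 13 mitochondrial genes, of which 7 did. Without sgCEBPD 3, the median was 0.01 over nuclear genes, with 33 of 75 negative, and 0.02 over mitochondrial genes, with 6 of 13 negative. Without sgCEBPD 4 it was -0.11 over nuclear genes, -0.14 over complex I and -0.14 over complex V, so single libraries on either side moved these medians. Over all genes tested the median was 0.00 with 8 libraries and without sgCEBPD 3. The absolute log2 fold change had a median of 0.08 over the 88 subunit genes and 0.15 over all genes. These sets were not matched for count level.

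For 77 of the 88 tested subunit genes, the 95% interval of the fold change lay within 1.5-fold in either direction. That was 64 of 75 nuclear genes and all 13 mitochondrial genes, against 56.6% of all genes tested. Interval width depends on count level, and genes of like level were not compared. Of the 91 subunit genes, 73 averaged 10 CPM or more, against 9556 of all 23562 rows. The subunit genes with wider intervals were ATP5MC1, COX8A, UQCR10 and 8 genes of complex I (NDUFA2, NDUFA3, NDUFA6, NDUFA7, NDUFA13, NDUFB2, NDUFB8 and NDUFV2). Of these 11 genes, NDUFA6 and ATP5MC1 averaged over 30 CPM, and the others averaged 15.1 CPM or less.

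**Figure D2:**
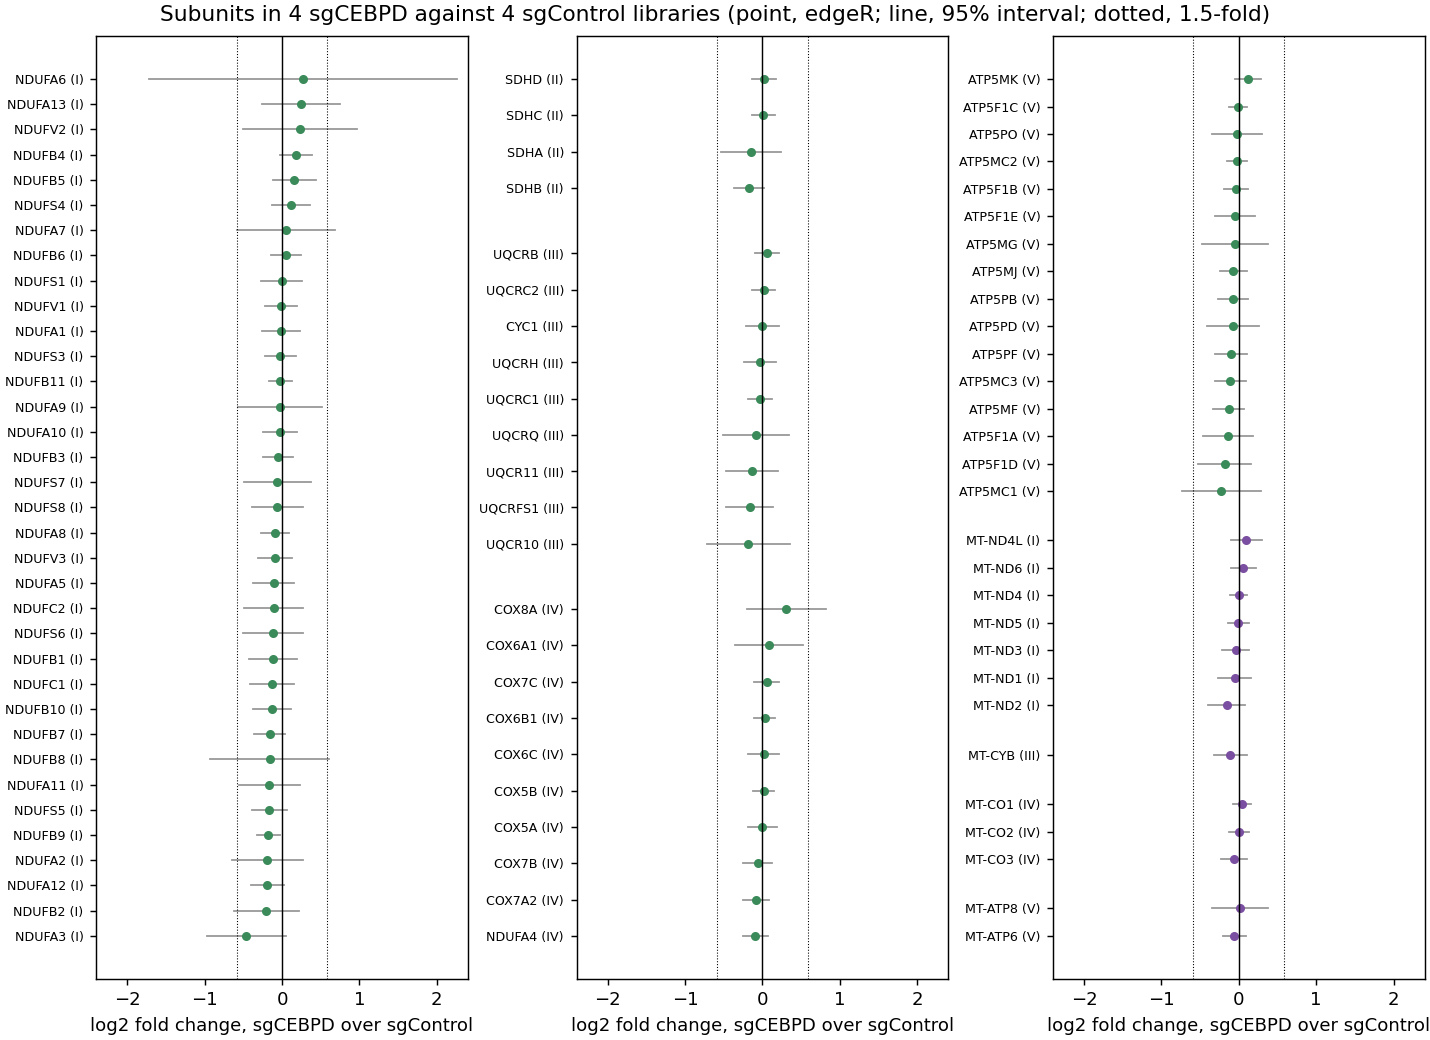
Log2 fold change of the tested subunit genes, except the gene whose values are not reported here, sgCEBPD over sgControl (point, edgeR estimate over 4 libraries each; line, 95% interval; dotted lines, 1.5-fold), with nuclear genes in green, mitochondrial genes in purple and the complex in parentheses. Most intervals lie within the dotted lines, and the widest is that of NDUFA6, from -1.71 to 2.26.

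In complex I, NDUFB9, an accessory subunit of the membrane arm, had 98.98, 96.87, 105.8 and 108.2 CPM in sgCEBPD 1 to 4, against 118, 111.4, 112.1 and 122.4 CPM in sgControl 1 to 4. Every sgCEBPD library was below every sgControl library. The log2 fold change of NDUFB9 was -0.18 (95% interval -0.32 to -0.03), with an adjusted p of 0.388 in edgeR, and -0.19 without sgCEBPD 3, with an adjusted p of 0.128. Its exons share 21% of their bases with other genes, among them MTSS1 on the opposite strand.

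NDUFA3, another accessory subunit, also had every sgCEBPD library below every sgControl library, at 7 to 10 counts in sgCEBPD and 11 to 14 counts in sgControl. Its log2 fold change was -0.46 (95% interval -0.97 to 0.05), with an adjusted p of 0.548 in edgeR. These 2 of 88 subunit genes had every sgCEBPD library lower, against 4.62% of all genes. Every sgCEBPD library was higher for 4.96% of all genes and for 1 subunit gene. NDUFS5, the nuclear complex I gene with the highest level per kb, averaged 97.3 ± 8.88 CPM in sgCEBPD and 108.9 ± 11.4 CPM in sgControl, and the groups overlapped.

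In complexes II and III the groups overlapped for every tested nuclear gene. SDHB, the iron-sulfur subunit of complex II, had 96.55, 95.26, 78.7 and 99.5 CPM in sgCEBPD 1 to 4, against 109, 101.5, 98.84 and 108.2 CPM in sgControl 1 to 4. Its sgCEBPD libraries lay at the low end, with sgCEBPD 4 above sgControl 3. The log2 fold change of SDHB was -0.17 with an adjusted p of 0.465 in edgeR. UQCRFS1, the Rieske iron-sulfur protein of complex III, averaged 137.2 ± 25.3 CPM in sgCEBPD and 153.8 ± 9.68 CPM in sgControl. UQCRB, a small subunit at the quinone site, averaged 138.6 ± 9.64 CPM in sgCEBPD and 132.7 ± 5.4 CPM in sgControl. CYC1 averaged 414.4 CPM in both groups, with an SD of 51.9 in sgCEBPD and 15.5 in sgControl. Of the 4 sgCEBPD libraries, sgCEBPD 3 alone was below the CYC1 range of the controls, at 336.7 CPM.

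With all 8 libraries, complex IV genes had the median closest to 0 among the nuclear parts of the complexes, and no gene had separate groups. COX8A, a small membrane subunit, had 10.67, 15.99, 18.86 and 21.16 CPM in sgCEBPD 1 to 4, against 13.99, 14.54, 9.90 and 15.42 CPM in sgControl 1 to 4. The sgCEBPD libraries took both the highest values and a value near the lowest. Its log2 fold change was 0.31 (95% interval -0.20 to 0.82), with an adjusted p of 0.594 in edgeR. NDUFA4 averaged 94.6 ± 5.1 CPM in sgCEBPD and 101 ± 6.36 CPM in sgControl. COX5A averaged 172.9 ± 18.2 CPM in sgCEBPD and 172.8 ± 7.01 CPM in sgControl.

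In complex V, 15 of 16 tested nuclear genes had a negative log2 fold change, between -0.22 and -0.02, and ATP5MK had a positive one. Without sgCEBPD 3, 9 of 16 were negative, with a median of -0.01, and without sgCEBPD 4 the median was -0.14. ATP5MK, a small subunit of the membrane part, averaged 52.2 ± 3.12 CPM in sgCEBPD and 47.9 ± 2.76 CPM in sgControl, for a log2 fold change of 0.13 and an adjusted p of 0.532 in edgeR. ATP5MF, another membrane subunit, averaged 14.9 ± 0.691 CPM in sgCEBPD and 16.3 ± 0.759 CPM in sgControl, with a log2 fold change of -0.13. ATP5F1B averaged 1043 ± 84.2 CPM in sgCEBPD and 1072 ± 30.3 CPM in sgControl.

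NDUFA6 varied between libraries more than any other subunit gene over 10 CPM, and was picked out after its values were seen. This complex I accessory subunit (chromosome 22, 42085525 to 42090955, minus strand, hg38) had 26.38, 51.09, 7.37 and 57.09 CPM in sgCEBPD 1 to 4, from 282, 540, 75 and 661 counts. In sgControl 1 to 4 it had 14.25, 58.34, 2.09 and 43.05 CPM, from 163, 602, 23 and 469 counts. Libraries 2 and 4 were high and libraries 1 and 3 low in both groups, so the groups overlapped fully. Its coefficient of variation among controls was 87.7%, against a median of 4.57% over the 73 subunit genes that averaged 10 CPM or more and 18.2% for the next, COX8A. Over all 9556 rows at that level, 0.188% had a coefficient as large. The log2 fold change of NDUFA6 was 0.27, with a 95% interval of -1.71 to 2.26, so no difference of several-fold could be detected for it.

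SMDT1, a neighbouring gene of the mitochondrial calcium uniporter complex, was also uneven. It had 27.41, 22.42, 21.81 and 16.07 CPM in sgCEBPD 1 to 4, against 1.40, 27.14, 7.90 and 23.86 CPM in sgControl 1 to 4. Both genes were low in sgControl 1 and sgControl 3, but SMDT1 was not low in sgCEBPD 3, where NDUFA6 was. The divergent transcript NDUFA6-DT stayed between 1.28 and 1.70 CPM in sgCEBPD libraries and between 1.14 and 1.82 CPM in sgControl libraries. What sets the spread of NDUFA6 was not tested.

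**Figure D3:**
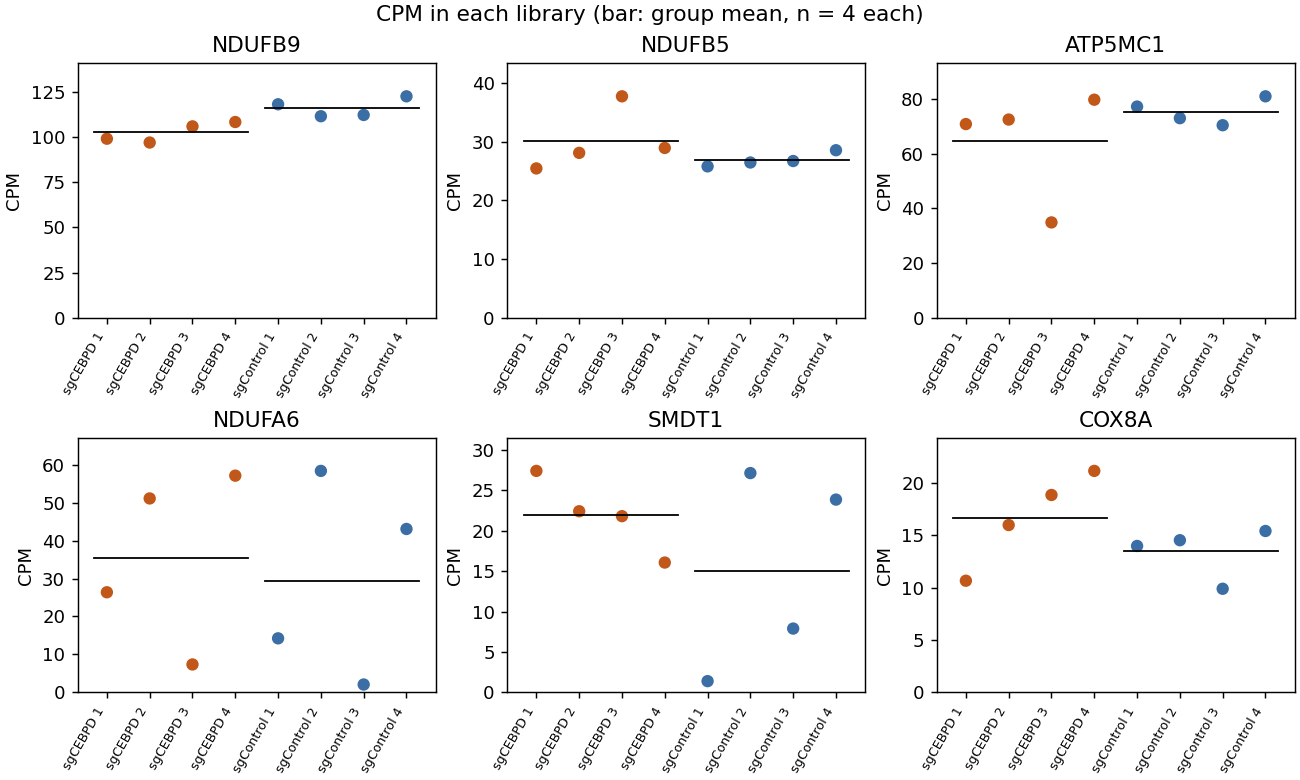
CPM in each of the 8 libraries for 5 subunit genes and SMDT1, with sgCEBPD in orange, sgControl in blue and bars at the group means (n = 4 each). NDUFB9 is lower in every sgCEBPD library than in every sgControl library, NDUFB5 is high in sgCEBPD 3 at 37.7 CPM, ATP5MC1 is low in sgCEBPD 3 alone at 34.9 CPM, and NDUFA6 spans 2.09 to 58.3 CPM irrespective of group.

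In sgCEBPD 3, most nuclear subunit transcripts were lower than in the other 7 libraries. Of the 75 tested nuclear genes, 43 were below the range of the other 7, 7 were above it and 25 were within it. Over all genes tested, 34.9% were below and 34.8% above. Mitochondrial genes split into 7 below, 1 above and 5 within. The median ratio of sgCEBPD 3 to the mean of the other 7 was 84.9% over nuclear genes, 93.1% over mitochondrial genes and 99% over all genes. These values describe 1 library and carry no test.

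By complex, the nuclear genes of complex III shifted most evenly, with 8 of 9 below the other 7 and a median log2 ratio of -0.34. Complex V had 11 of 16 below and a median of -0.23, complex I had 19 of 36 below and a median of -0.30, and complex II had 2 of 4 below. Complex IV had 3 of 10 below and a median of -0.06. All 7 nuclear genes above the other 7 belonged to complex I.

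The other 3 sgCEBPD libraries lay close to the controls. The median log2 ratio of nuclear subunit genes to the control mean was -0.04, -0.03, -0.24 and 0.08 in sgCEBPD 1 to 4, against -0.01, 0.00, -0.05 and 0.06 in sgControl 1 to 4. sgCEBPD 3 was the lowest of the 8 and sgCEBPD 4 the highest. Over mitochondrial genes these medians were 0.07, -0.02, -0.09 and -0.02 in sgCEBPD 1 to 4, against 0.00, 0.03, -0.06 and 0.03 in sgControl 1 to 4, so sgCEBPD 3 was again lowest, by less.

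**Figure D4:**
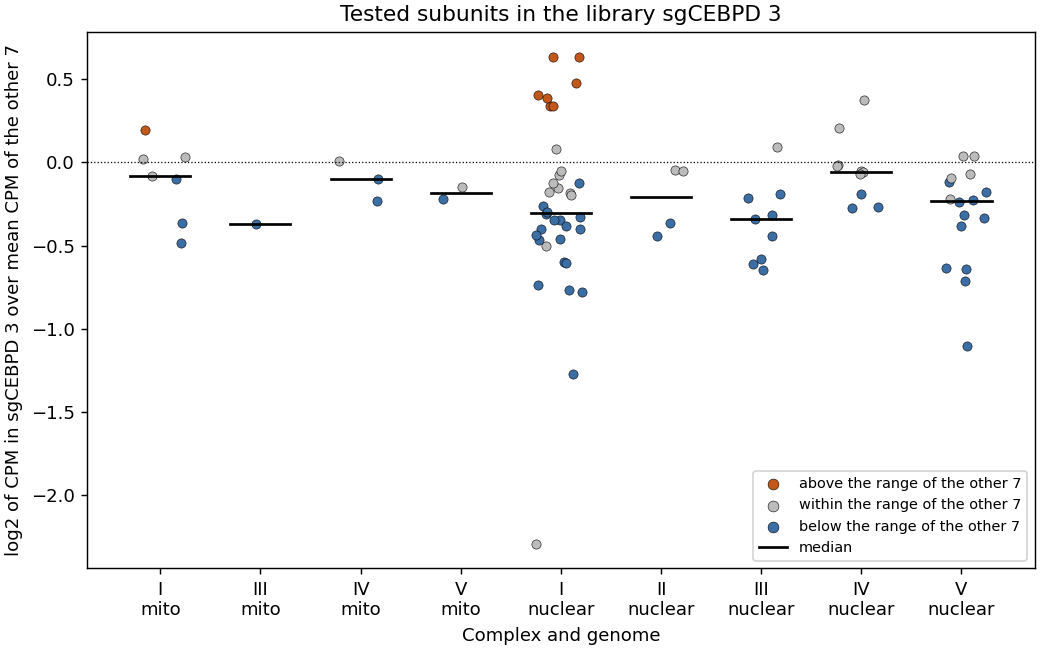
Log2 ratio of CPM in sgCEBPD 3 to the mean CPM of the other 7 libraries for the 88 tested subunit genes, by complex and genome (orange, above the range of the other 7; grey, within it; blue, below it; bars, medians). The 7 nuclear genes above that range are all in complex I, and complex IV lies closest to 0 among the nuclear parts, with a median of -0.06.

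ATP5MC1 had the lowest ratio in sgCEBPD 3 among subunit genes over 10 CPM outside the range of the other 7. It codes for subunit c, of which the rotor ring of ATP synthase is made. ATP5MC1 had 70.82, 72.47, 34.88 and 79.72 CPM in sgCEBPD 1 to 4, against 77.21, 72.97, 70.4 and 80.96 CPM in sgControl 1 to 4. Only sgCEBPD 3 was low, at 46.5% of the mean of the other 7. Its fitted log2 fold change was -0.22 (95% interval -0.74 to 0.29) with all libraries and -0.02 without sgCEBPD 3. ATP5MC2 and ATP5MC3, known to code for the same mature subunit c, had 92.1% and 80.4% of the other 7 in sgCEBPD 3.

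Lower members were found in complexes I to V, and 4 are given here that were picked after their values were seen. ATP5F1D, the delta subunit of the rotor stalk, had 131.6 CPM in sgCEBPD 3, against 204.6 to 232.2 CPM in the other 7 libraries. ATP5F1A had 486.6 CPM in sgCEBPD 3, against 710.6 to 792.4 CPM in the others. NDUFS6 had 46.18 CPM in sgCEBPD 3, against 71.47 to 86.55 CPM in the others, and NDUFS8, a core iron-sulfur subunit, had 48.54 CPM, against 69.97 to 82.4 CPM. NDUFB8 and ATP5MFP2 were also below, at 0.688 and 0.491 CPM, from few counts.

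The higher members included NDUFB5, NDUFS4, NDUFB4, NDUFA13, NDUFV2 and NDUFA2. NDUFB5, of the membrane arm, had 37.73 CPM in sgCEBPD 3, against 25.45 to 28.94 CPM in the other 7 libraries. NDUFS4, an accessory subunit of the peripheral arm, had 49.91 CPM in sgCEBPD 3, against 34.7 to 40.05 CPM in the others. NDUFB4, of the membrane arm, had 95.99 CPM, against 68.47 to 80.76 CPM. NDUFA13 reached 6.58 CPM in sgCEBPD 3 with 3.49 to 5.11 CPM elsewhere, and NDUFV2 reached 2.26 CPM with 0.775 to 1.89 CPM elsewhere. Complex I subunits thus lay on both sides of the other libraries in 1 sample.

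Promoters of the nuclear members were searched as a feature that the choice by symbol did not use. RefSeq promoter entries (GRCh38.p14) were matched for 63 of the 78 genes, and the 250 bases upstream of the start were read on both strands. GCGCANGCG, the letters bound by NRF1, a factor known to act on respiratory genes, stood in 30.2% of the members and in 7.02% of all 27305 promoters. CCGGAAG, a core of the GABP and other ETS sites, stood in 27% of members and in 8.82% of all. CCAAT stood in 31.7% of members and 33% of all, TATAAA in 9.52% and 11.1%, and AAGATGGC, a YY1 core, in 1.59% and 1.37%. TTGCNNAA, a C/EBP core, stood in 4.76% of members and in 9.13% of all. Of the 37 genes with an entry that lay below the other 7 in sgCEBPD 3, 12 held the NRF1 letters, and of the 5 above, 1 did. CCAAT stood in 11 of those 37 and in 1 of the 5. TTGCNNAA stood in 1 of the 37 and in 1 of the 5. A match of letters does not show binding.

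Promoters of single genes over 10 CPM with an entry are printed as examples. ATP5MC1 (chr17:48892537-48892786, plus strand) was the subunit gene of these furthest below the range of the other 7 libraries in sgCEBPD 3. NDUFS4 (chr5:53560389-53560638, plus strand) and NDUFB4 (chr3:120596086-120596335, plus strand) were the pair furthest above by the same measure. Their letters do not stand for those of the other genes below or above. Capitals mark CCAAT in ATP5MC1, TTGCNNAA read on the other strand in NDUFS4, and GCGCANGCG on either strand in NDUFB4. The ATP5MC1 stretch holds 4 CCAAT letters, and the NDUFB4 stretch holds 3 matches to the NRF1 letters, of which 2 overlap. None of the NRF1, ETS, YY1 or TATA letters searched was found in the ATP5MC1 and NDUFS4 stretches.
ATP5MC1: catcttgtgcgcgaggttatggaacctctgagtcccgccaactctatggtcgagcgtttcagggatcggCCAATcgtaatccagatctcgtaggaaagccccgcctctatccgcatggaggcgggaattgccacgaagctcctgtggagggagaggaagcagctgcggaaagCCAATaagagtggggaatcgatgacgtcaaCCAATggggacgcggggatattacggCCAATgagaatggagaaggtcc
NDUFS4: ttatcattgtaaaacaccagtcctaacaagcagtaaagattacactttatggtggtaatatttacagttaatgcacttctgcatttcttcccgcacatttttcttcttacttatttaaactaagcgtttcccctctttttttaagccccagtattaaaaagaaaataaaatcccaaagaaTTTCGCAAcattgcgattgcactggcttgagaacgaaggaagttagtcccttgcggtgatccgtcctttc
NDUFB4: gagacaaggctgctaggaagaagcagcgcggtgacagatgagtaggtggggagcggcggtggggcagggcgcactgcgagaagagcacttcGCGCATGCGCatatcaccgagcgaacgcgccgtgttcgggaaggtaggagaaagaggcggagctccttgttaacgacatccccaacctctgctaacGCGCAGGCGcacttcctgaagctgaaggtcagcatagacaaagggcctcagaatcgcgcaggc

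The mitochondrial mRNAs together took 2.68%, 2.51%, 2.22% and 2.50% of all counts in sgCEBPD 1 to 4, against 2.55%, 2.58%, 2.50% and 2.62% in sgControl 1 to 4. sgCEBPD 3 was the lowest of the 8 and sgCEBPD 1 the highest. The mean was 2.48% ± 0.189 in sgCEBPD and 2.56% ± 0.0485 in sgControl (SD, n = 4 each), and 2.56% ± 0.098 in sgCEBPD without sgCEBPD 3 (n = 3). The 95% Wilson interval of a single share extended by at most 0.0097 percentage points on either side, and covers counting error only. Nuclear subunit genes took 0.811%, 0.803%, 0.653% and 0.854% in sgCEBPD 1 to 4, against 0.809%, 0.813%, 0.8% and 0.848% in sgControl 1 to 4.

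Mitochondrial over nuclear subunit counts gave a ratio of 3.30, 3.13, 3.40 and 2.93 in sgCEBPD 1 to 4, against 3.15, 3.17, 3.13 and 3.09 in sgControl 1 to 4. The sgCEBPD libraries took both the highest and the lowest ratio. The mean was 3.19 ± 0.205 in sgCEBPD and 3.13 ± 0.0385 in sgControl, a difference smaller than the SD of the sgCEBPD libraries.

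Within the mitochondrial set, MT-CO1 and then MT-ND4 took the largest shares in all 8 libraries, while sgCEBPD 3 held the lowest share for 5 of the 13 genes and the highest for 4. MT-CO1 took 25.5% to 28.3% of the mitochondrial mRNA counts in sgCEBPD libraries and 24.8% to 26.3% in sgControl libraries. MT-ND4, a proton-pumping subunit of complex I, took 13.3% to 15.3% in sgCEBPD libraries and 13.4% to 13.9% in sgControl libraries. In sgCEBPD 3, MT-ND1 took 5.36%, MT-ND2 took 5.40% and MT-CYB took 7.76%, each the lowest of the 8 libraries.

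MT-ND2, a core membrane subunit of complex I, had the most negative log2 fold change of the 13. It had 1819, 1595, 1262 and 1755 CPM in sgCEBPD 1 to 4, against 1775, 1829, 1781 and 1789 CPM in sgControl 1 to 4. The control libraries were close together, and sgCEBPD 2, sgCEBPD 3 and sgCEBPD 4 were below all of them. Its log2 fold change was -0.16 (95% interval -0.40 to 0.09), with an adjusted p of 0.573 in edgeR, and -0.06 without sgCEBPD 3. MT-CYB, the cytochrome b of complex III, had 2512, 2222, 1814 and 2230 CPM in sgCEBPD 1 to 4, against 2347, 2450, 2270 and 2397 CPM in sgControl 1 to 4. Its log2 fold change was -0.11, and -0.03 without sgCEBPD 3.

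The other complex I mRNAs of the mitochondrion differed less. MT-ND1, at the quinone site, averaged 1541 ± 201 CPM in sgCEBPD and 1596 ± 41.6 CPM in sgControl. MT-ND3 averaged 361.8 ± 22.6 CPM in sgCEBPD and 372.1 ± 31.3 CPM in sgControl. MT-ND4 averaged 3493 ± 129 CPM in sgCEBPD and 3490 ± 58 CPM in sgControl, and MT-ND5 averaged 2570 ± 136 CPM in sgCEBPD and 2583 ± 113 CPM in sgControl. MT-ND6, the only mRNA of the set read from the opposite strand of the circle, averaged 548.7 ± 5.22 CPM in sgCEBPD and 526 ± 45.2 CPM in sgControl. MT-ND4L had 175.4, 177.8, 206.7 and 200.8 CPM in sgCEBPD 1 to 4, against 182, 193.4, 155.9 and 180.1 CPM in sgControl 1 to 4, and was the only mitochondrial gene above the other 7 in sgCEBPD 3.

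Core genes of complexes IV and V in the mitochondrion had means within 5% of each other between groups. MT-CO1 averaged 6667 ± 290 CPM in sgCEBPD and 6489 ± 176 CPM in sgControl. MT-CO2 averaged 2234 ± 121 CPM in sgCEBPD and 2234 ± 87.3 CPM in sgControl, and MT-CO3 averaged 2512 ± 226 CPM in sgCEBPD and 2621 ± 110 CPM in sgControl. MT-ATP6 averaged 1135 ± 85.5 CPM in sgCEBPD and 1179 ± 30.4 CPM in sgControl. MT-ATP8 averaged 8.95 ± 0.687 CPM in sgCEBPD and 8.87 ± 1.6 CPM in sgControl. All 13 adjusted p-values in edgeR were at or above 0.573.

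**Figure D5:**
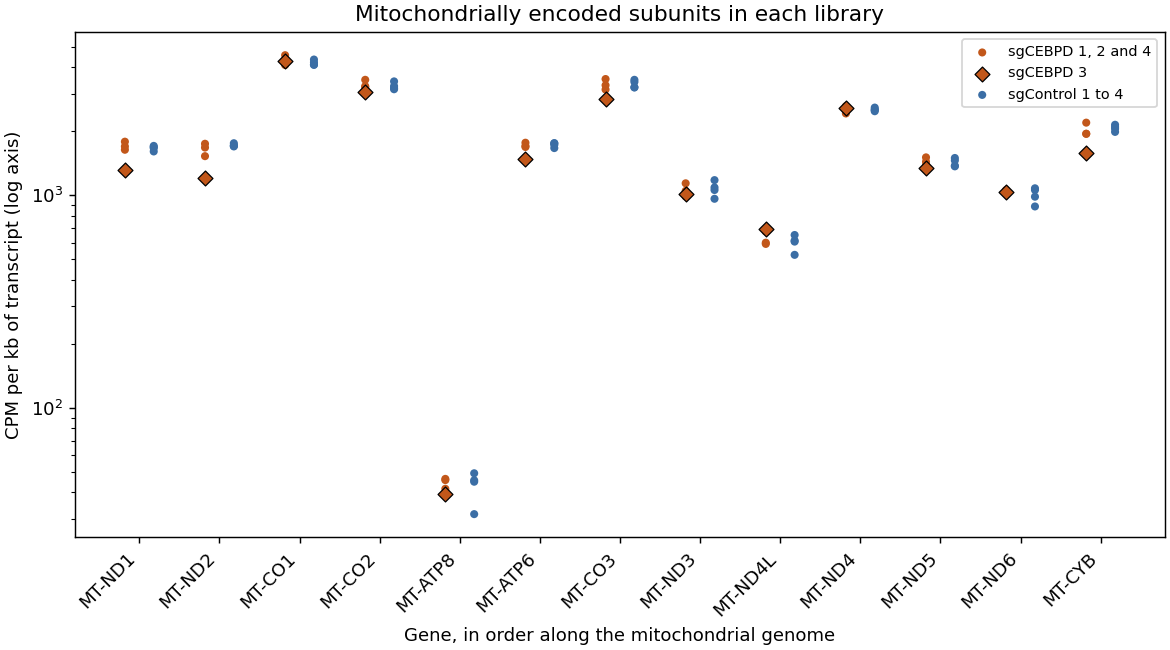
CPM per kb (log axis) of the 13 mitochondrially encoded subunit mRNAs in each library, in their order along the mitochondrial genome; orange, sgCEBPD, with sgCEBPD 3 as a diamond; blue, sgControl. sgCEBPD 3 is lowest for 7 genes, among them MT-ND1, MT-ND2 and MT-CYB, and MT-ATP8 stands far under the others at a mean of 43.1 CPM per kb.

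Mitochondrial ribosomal RNAs did not follow the mRNAs in sgCEBPD 3. MT-RNR2, the large ribosomal RNA, had 4160, 3991, 4995 and 3720 CPM in sgCEBPD 1 to 4, against 3621, 3881, 3710 and 3866 CPM in sgControl 1 to 4. MT-RNR1, the small one, had 1099 CPM in sgCEBPD 3, against 680.6 to 1009 CPM in the other 7 libraries. Mitochondrial mRNA counts were 3.83 times the ribosomal RNA counts in sgCEBPD 3, against 5.22 to 5.80 times in the other 7. Since libraries were made from polyadenylated RNA, these ratios also depend on capture, which was not tested.

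Genes that build the complexes or express the mitochondrial genome also gave 0 calls in edgeR with all 8 libraries and without sgCEBPD 3. Of all genes, 0.0795% and 2.01% were called in these fits. Of 15 complex I assembly factors, 12 had a negative log2 fold change with a median of -0.09. None of them had an unadjusted p under 0.05, against 11.4% of all genes. Without sgCEBPD 3, 8 of 15 were negative with a median of -0.01. In that fit 1 of 15 had an unadjusted p under 0.05, against 15.5% of all genes. Of 32 tested assembly factors of complexes II to V, 20 were negative with 8 libraries, also with a median of -0.09. Without sgCEBPD 3, 15 of 32 were negative with a median of 0.00. At an unadjusted p under 0.05 stood 0 of 32 in both fits, against 11.4% and 15.5% of all genes. A list of 23 genes covered transcription and maintenance of the mitochondrial genome and processing or stability of its RNA. Of these 23, 20 were negative with a median of -0.12, and without sgCEBPD 3 the median was -0.01. In that list 0 of 23 had an unadjusted p under 0.05 with 8 libraries, against 11.4% of all genes, and 2 of 23 without sgCEBPD 3, against 15.5%. In sgCEBPD 3, 21 of those 23 were below the other 7 libraries, with a median log2 ratio of -0.51. Of all genes, 34.9% were below and 34.8% above. Every sgCEBPD library was below every sgControl library for NUBPL (1 of 15), COA1 (1 of 32) and POLG (1 of 23), against 4.62% of all genes. Every sgCEBPD library was above for COX15 (1 of 32), against 4.96% of all genes.

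Among these genes, TFB2M, a mitochondrial transcription factor, had 93.37, 77.39, 60.52 and 85.17 CPM in sgCEBPD 1 to 4, against 92.51, 92.26, 90.93 and 96.28 CPM in sgControl 1 to 4. MTERF3, a mitochondrial protein known to act in expression of its genome, had a log2 fold change of -0.21 with an adjusted p of 0.459 in edgeR. Of 8 tested regulators of respiratory genes, 7 had a negative log2 fold change, with a median of -0.05, and 4 of 8 were negative without sgCEBPD 3. PPARGC1B, a coactivator of respiratory genes, had 35.17 CPM in sgCEBPD 3, against 76.91 to 91.14 CPM in the other 7. COX4I1, a complex IV subunit outside the symbols used, had 369.1, 356.5, 303.1 and 380.8 CPM in sgCEBPD 1 to 4, against 364.7, 374.9, 372.9 and 393.1 CPM in sgControl 1 to 4. CYCS, the soluble cytochrome c that links complexes III and IV, had 145.7 CPM in sgCEBPD 3, against 252.7 to 285.5 CPM in the other 7.

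The tricarboxylic acid cycle, which supplies NADH and succinate, gave 0 of 14 calls in edgeR with 8 libraries and 0 of 14 without sgCEBPD 3, against 0.0795% and 2.01% of all genes. At an unadjusted p under 0.05 stood 1 of 14 with 8 libraries, against 11.4% of all genes, and 3 of 14 without sgCEBPD 3, against 15.5%. IDH2, the mitochondrial NADP-dependent isocitrate dehydrogenase, had 379.7, 418.5, 483.2 and 370.2 CPM in sgCEBPD 1 to 4, against 327.8, 324.8, 341.5 and 346.3 CPM in sgControl 1 to 4. Every sgCEBPD library was above every sgControl library. Its log2 fold change was 0.30 with an adjusted p of 0.298 in edgeR, and 0.22 with an adjusted p of 0.0576 without sgCEBPD 3, so it did not pass the threshold. DLST was also higher in every sgCEBPD library, at 159.4 to 163 CPM, against 144.4 to 152.8 CPM in sgControl libraries, with an adjusted p of 0.439 in edgeR. These were 2 of 14 genes, against 4.96% of all genes, and 0 of 14 were lower in every library. By sign, 7 of 14 were negative with a median of -0.001, and without sgCEBPD 3, 2 of 14 were negative with a median of 0.07.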

How the data were processed

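RNA sequencing counts per gene for 8 OCI-AML5 libraries were used as the authors deposited them, as raw counts with no normalization. The submitters' processing notes name hg38, HISAT2, FastQC and DESeq2 with no versions. How reads were counted, with which strand setting and annotation, is not given in the sources used here. Counts were fitted in R 4.3.3 with edgeR 4.0.16 (filterByExpr, TMM, robust quasi-likelihood test, group as the only term), with Benjamini-Hochberg adjustment over all genes tested and a threshold of 0.05. CPM were computed from TMM-scaled totals. The fits were also run on simulated counts in which no library was set apart. Those runs cannot show how the fits behave with a library like sgCEBPD 3. Alternatives used DESeq2 1.42.0, limma 3.58.1, other scalings and filters, a replicate block and each library left out. Gene positions, exon overlap and transcript lengths came from GENCODE 29, in which all 102 rows were matched, 5 under older names. Members were chosen by symbol with no use of their values, but earlier results of these data were known when members and lists were chosen. Named with values were, per nuclear part of a complex, the 2 lowest p and the highest level per kb, the 13 mitochondrial genes, tissue-restricted isoforms, and the 3 highest and 3 lowest rows in sgCEBPD 3. The 2 genes with the lowest p per related list were also picked, but not all are given with values. Left out were NDUFA4L2, ATP5IF1, NUBPL, NDUFAF4, COX15, SDHAF3 and PPRC1. Among those left out, NUBPL was lower and COX15 higher in every sgCEBPD library than in every sgControl library. Of all genes, 4.62% were lower and 4.96% higher in this way. The rest of those left out overlapped. Others were added after their values were seen. Totals of 10217751 to 11521209 counts limit precision for genes of few counts. The values of 1 subunit gene are not reported here, while counts and medians include it.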

Additional observations from a re-analysis of the deposited data

Results flagged for a closer look

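Among 90 groups of 4 values examined for a library far from the other 3, 4 had one, while 1 in 20 by chance gives 4.5. CYC1 stood at 337 CPM in sgCEBPD 3, with 436 to 444 CPM in the other sgCEBPD libraries. CYC1 also stood at 438 CPM in sgControl 4, with 406 to 408 CPM in the other sgControl libraries. ATP5MK stood at 56.8 CPM in sgCEBPD 4, with 50 to 51.2 CPM in the other sgCEBPD libraries. COX6B2 stood at 0.982 CPM in sgCEBPD 3, with 0.173 to 0.284 CPM in the other sgCEBPD libraries.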

How the results depend on the processing

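No alternative called a subunit gene. Over all genes, where 11 were called, DESeq2 called 301, quality weights in limma-voom 223, no filter 20, the replicate block called 1, and a threshold of 0.01 on adjusted p left 1. Leaving out 1 library gave 0 (without sgCEBPD 2) to 283 (without sgCEBPD 3). Same-numbered libraries correlated between -0.108 and 0.0636 in their deviations, so the numbers did not pair them, and the block called 0 subunit genes. The mitochondrial median log2 fold change lay between -0.07 (without sgControl 3) and 0.02 with 1 library left out. Over nuclear subunits it lay between -0.11 (without sgCEBPD 4) and 0.01 (without sgCEBPD 3), over complex I between -0.14 and 0.01 and over complex V between -0.14 and -0.01, for the same omissions. Leaving out members with principal transcripts over 5000 bases was chosen after seeing the data. Small fold changes reversed their sign, with no call. With quality weights, ATP5F1B gave 0.01, MT-ND1 0.04, MT-ND5 0.02 and NDUFB8 0.08. With library totals, MT-ATP8 gave -0.01. With 1 library left out, the ranges were -0.07 to 0.01 for ATP5F1B, -0.11 to 0.09 for MT-ATP8, -0.10 to 0.04 for MT-ND1, -0.09 to 0.01 for MT-ND3, -0.04 to 0.02 for MT-ND5 and -0.33 to 0.07 for NDUFB8. Depth limits genes of few counts, such as NDUFA3 with 7 to 14 counts a library. The causes of these shifts were not tested.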
